A study of Mus musculus with 24 samples.

Results

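The genes described here are those of glucose breakdown to lactate and of the cellular response to low oxygen: 35 symbols for glucose and lactate transporters, glycolytic enzymes, regulators of glycolytic flux, the oxygen-labile transcription factors HIF and their regulators, and targets of HIF. They were taken by exact match of the gene symbol in the deposited table, which gave 36 rows of 54532 because Aldoa stands there under 2 Ensembl identifiers. All 36 rows passed the filter on low counts and were among the 14261 genes tested. They were followed in 24 RNA-seq libraries of mouse bone marrow-derived macrophages, phagocytes grown in culture from marrow precursors with the growth factor CSF-1.

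All mice carried the strain label C57BL/6 and were 2 to 3 months old. In the Smad2 line, Smad2fl stands for cells of Smad2 fl/fl mice and MyS2KO for cells of Smad2 fl/fl + LyzM-Cre mice, in which the recombinase is driven by the lysozyme gene of myeloid cells. In the Smad3 line, Smad3fl stands for Smad3 fl/fl and MyS3KO for Smad3 fl/fl + LyzM-Cre. Both members of each pair thus carry the same floxed alleles, and the labels name no cells with unmodified alleles. All cells were kept without serum for about 16 hours and then left untreated or given 10 ng/ml TGF-β1 for 4 hours, with 3 libraries for each of the 8 groups. Nothing in the labels ties the 3 libraries of a group to separate mice or cultures, and their protocols speak of 8 libraries where 24 are deposited, so p-values measure only the spread between these libraries. SMAD2 and SMAD3 are the transcription factors that TGF-β receptors phosphorylate.

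As background, glycolysis turns glucose into pyruvate, and lactate dehydrogenase and the monocarboxylate transporters carry the product on to lactate and out of the cell. HIF proteins drive many of these genes when oxygen is low. When oxygen is present, prolyl hydroxylases (Egln genes) mark the HIF α subunit, and the VHL protein, part of a ubiquitin ligase, has it degraded. Macrophages lean on glycolysis, and HIF-1α is known for raising it in inflammatory activation. TGF-β is a growth factor that tempers inflammatory activation of macrophages and supports repair.

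The upstream sequences of 6 of the genes show how their promoters differ. Vhl and Hk2 were higher with TGF-β1 in all 4 genotypes and Egln3 in 2 of them. Slc2a1, Bnip3 and Pgk1 were lower in untreated MyS3KO than in untreated Smad3fl. Vhl, Hk2 and Egln3 were lower in that comparison too, so the genes do not fall into separate classes of response. Each is taken from the RefSeq promoter table (build GRCm38.p6), from 250 bases before the RefSeq start to the base before the earlier of that start and the start in the deposited table, which cuts the Vhl, Slc2a1 and Bnip3 stretches short of the RefSeq start. They are read 5′ to 3′ on the gene's strand, with capitals where ACGTG, the core of the hypoxia response element, or CAGAC, a SMAD-binding motif, stands on either strand. The 2 motifs share bases in the Egln3 sequence, and the palindrome CACGTG of the Bnip3 sequence counts as ACGTG on both strands.

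Vhl chr6:113623744-113623958 plus strand: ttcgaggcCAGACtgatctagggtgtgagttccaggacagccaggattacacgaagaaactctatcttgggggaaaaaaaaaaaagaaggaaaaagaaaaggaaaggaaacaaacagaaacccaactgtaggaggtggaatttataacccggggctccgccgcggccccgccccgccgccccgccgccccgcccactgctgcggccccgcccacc
Hk2 chr6:82774455-82774704 minus strand: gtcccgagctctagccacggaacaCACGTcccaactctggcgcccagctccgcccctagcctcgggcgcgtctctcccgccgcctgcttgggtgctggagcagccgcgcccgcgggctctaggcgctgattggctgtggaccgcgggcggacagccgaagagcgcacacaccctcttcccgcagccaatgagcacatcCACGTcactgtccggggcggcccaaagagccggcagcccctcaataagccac
Egln3 chr12:54203875-54204124 minus strand: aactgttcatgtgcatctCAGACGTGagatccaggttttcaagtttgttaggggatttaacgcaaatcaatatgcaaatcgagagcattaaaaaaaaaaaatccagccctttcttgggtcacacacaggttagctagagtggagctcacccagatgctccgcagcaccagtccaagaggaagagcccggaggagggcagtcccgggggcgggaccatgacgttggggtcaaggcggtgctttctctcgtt
Slc2a1 chr4:119108495-119108710 plus strand: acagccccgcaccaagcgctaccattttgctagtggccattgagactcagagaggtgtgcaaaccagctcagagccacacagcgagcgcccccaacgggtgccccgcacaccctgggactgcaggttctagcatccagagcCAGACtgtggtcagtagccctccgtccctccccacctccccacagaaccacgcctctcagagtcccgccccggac
Bnip3 chr7:138909520-138909756 minus strand: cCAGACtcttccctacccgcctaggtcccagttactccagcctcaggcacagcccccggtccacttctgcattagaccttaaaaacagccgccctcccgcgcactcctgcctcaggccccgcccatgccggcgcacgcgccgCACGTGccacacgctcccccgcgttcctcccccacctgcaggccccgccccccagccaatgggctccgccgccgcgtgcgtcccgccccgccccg
Pgk1 chrX:106186850-106187099 plus strand: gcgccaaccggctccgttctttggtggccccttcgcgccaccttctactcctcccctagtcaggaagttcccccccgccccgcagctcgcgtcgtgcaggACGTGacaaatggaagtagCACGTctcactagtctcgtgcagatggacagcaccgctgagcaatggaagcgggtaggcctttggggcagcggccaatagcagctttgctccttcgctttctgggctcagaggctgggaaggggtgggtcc

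In these stretches ACGTG stood 2 times upstream of Hk2, 2 times upstream of Bnip3, 2 times upstream of Pgk1 and 1 time upstream of Egln3, and it was not found in the Vhl stretch or in the whole Vhl window. In the Slc2a1 window it stands at position -36 from the RefSeq start, across the end of the stretch shown. CAGAC stood 1 time each in the Vhl, Egln3, Slc2a1 and Bnip3 stretches. Over whole windows of the table (250 bases before to 50 after a start), 33 of the 35 symbols matched with 48 windows, and Epas1 and Ndrg1 did not match. ACGTG lay in 52.1% of these windows against 19.6% of all 32851 windows, the palindrome CACGTG in 12.5% against 7.15%, and CAGAC in 39.6% against 49.6%. The members' windows were also richer in CG, with a median of 21 CG dinucleotides against 7.0 over all windows. ACGTG itself holds a CG, and the part of base composition in its share was not tested. A match is a description of letters and not evidence of binding.

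Libraries held 16868501 to 24918582 counted reads. Levels are CPM (read counts scaled to a common library total, here after TMM scaling). They are given library by library in the order of their numbers or as mean ± SD of 3 libraries. Log2 changes are fitted values ± standard error. A gene was called higher or lower at an adjusted p under 0.05 in the edgeR quasi-likelihood test, with the Benjamini-Hochberg adjustment over all tested genes. Smad2 RNA was at 40.4 ± 2.9 CPM in the untreated libraries labelled MyS2KO and 42.2 ± 2.98 CPM in untreated Smad2fl (-0.06 ± 0.12, adjusted p = 0.924). Counts summed over all exons cannot show a loss of the floxed ones, and MyS2KO stands throughout for the libraries so labelled. Smad3 RNA was 424 ± 48.2 CPM in untreated Smad3fl and 184 ± 24 CPM in untreated MyS3KO. The macrophage markers Csf1r, Adgre1 and Cd68 were read in every group, and the 10 macrophage markers summed to 13619 to 23045 CPM by library. Some libraries stood apart from their groups. Both Smad3fl libraries numbered 3 held the antiviral gene Trim12a at 0.423 (untreated) and 0.839 CPM (treated), against 38.7 to 73 CPM in numbers 1 and 2. Both MyS3KO libraries numbered 1 held the interferon-inducible gene Ifi202b at no more than 1.25 CPM, against 68.8 to 104 CPM in numbers 2 and 3. The MyS3KO and Smad3fl groups also differed in such genes beside Smad3. Trim12a was at no more than 0.0991 CPM in the 6 MyS3KO libraries and at 49.4 to 102 CPM in the Smad2 line. Nlrp1a, an inflammasome sensor, was at 0 in all MyS3KO libraries, at no more than 0.0439 CPM in Smad3fl numbers 1 and 2, at 12.9 and 9.0 CPM in Smad3fl number 3 and at 16.1 to 21.1 CPM in the Smad2 line. The part of such differences in the results was not tested. Counts of the Smad3 line are also given without these pairs of libraries.

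By the deposited FPKM, Gapdh, Pkm, Aldoa and Ldha, all enzymes of the main path to lactate, were the most abundant members in all 8 groups. This order rests on the lengths that the FPKM imply, which for most members are shorter than the gene lengths listed in the same table. With the listed lengths the first was Aldoa in 7 groups and Pgk1 in untreated Smad3fl, and in untreated Smad2fl Aldoa was at 632 ± 52.4, Pgk1 at 508 ± 46.4 and Gapdh at 503 ± 34.4 per listed kilobase. As deposited, in untreated Smad2fl Gapdh (glyceraldehyde 3-phosphate dehydrogenase) was at 2202 ± 150.3 FPKM (mean ± SD, n = 3, of the deposited fragments per kilobase of gene and library size), Pkm (pyruvate kinase) at 2051 ± 211, Aldoa (aldolase A) at 1775 ± 147 and Ldha (lactate dehydrogenase A) at 1351 ± 186 FPKM. Gapdh and Pkm, and Pkm and Aldoa, lie within their spreads of each other there, while Ldha is below Aldoa by more than the spread. Pgk1 (phosphoglycerate kinase), Tpi1 (triose phosphate isomerase), Eno1 (enolase 1) and Gpi1 (glucose 6-phosphate isomerase) followed at 791 ± 72.4, 824 ± 112, 741 ± 90.3 and 625 ± 53.6 FPKM, again with spreads that overlap between neighbours. Far below stood the HIF subunits, with Hif1a at 18.4 ± 3.98 FPKM and Epas1, the HIF-2α gene, at 0.0309 ± 0.0133 FPKM. Epas1 did not pass 1.58 CPM in any library, and the second Aldoa identifier (ENSMUSG00000114515) did not pass 1.12 CPM. By group means in FPKM, the range over the 8 groups was smallest for Pfkfb4, a regulator of phosphofructokinase (1.35-fold), and largest among members over 1 FPKM in all groups for Egln3, a HIF prolyl hydroxylase (17.7-fold). The next widest among those were Hk2 (hexokinase II, 5.46-fold), Vhl (4.73-fold), Ndrg1, a hypoxia-induced gene (4.22-fold), and Aldoc, the brain-type aldolase (4.14-fold).

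The lowest and highest group means over the 8 groups place each member. Among the transporters, mean FPKM was 140.1 to 459 for Slc2a1, 142 to 365 for Slc16a3 and 0.440 to 2.0 for Slc16a1, which is far below the others. For the hexokinases it was 472 to 678 for Hk3, 108 to 159 for Hk1 and 54.1 to 295 for Hk2. For the phosphofructokinase subunits it was 167 to 356 for Pfkl, 99.4 to 197 for Pfkp and 2.26 to 5.14 for Pfkm, and the muscle type was far below the others. Aldolase was nearly all Aldoa, at 1658 to 2609.5 FPKM, with Aldoc at 8.77 to 36.3 FPKM. In the other steps of the path it was 533 to 930.3 for Gpi1, 658 to 1325 for Tpi1, 1811 to 3546 for Gapdh, 719.8 to 1361 for Pgk1 and 82.2 to 183 for Pgam1. Further down it was 563 to 1159 for Eno1, 7.27 to 30.0 for Eno2, 1858 to 2738 for Pkm, 1093 to 2019 for Ldha and 0.833 to 3.43 for Ldhb. Eno2 and Ldhb were thus minor isozymes beside Eno1 and Ldha. Regulators of flux had 182 to 315 for Pfkfb3, 24.7 to 33.3 for Pfkfb4, 83.5 to 161 for Pdk1 and 5.6 to 11.3 for Pdk3. HIF subunits and oxygen sensors had 18.4 to 71.5 for Hif1a, 0.0173 to 0.190 for Epas1, 2.05 to 7.95 for Egln1, 1.62 to 28.6 for Egln3 and 25.6 to 121 for Vhl. HIF targets had 106 to 394 for Bnip3, 43.4 to 183 for Ndrg1, 146 to 271 for P4ha1, 30.1 to 55.1 for Ankrd37 and 30.8 to 83.7 for Kdm3a. Ankrd37 overlaps Ufsp2 over 57 bases, and Pkm overlaps a gene on its own strand that held 2.32% as many reads, so a share of their counts may belong to the neighbour.

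The main-path enzymes moved together from library to library. Over the 24 libraries, the 45 pairs among 10 enzymes from Gpi1 to Ldha had a median correlation of 0.89 on log2(CPM + 0.5) scaled by library totals, and 0.79 after the group means were taken off. The 36 pairs among 9 HIF regulators and targets had medians of 0.65 and 0.46, with single pairs from -0.66 to 0.96. These are descriptions across libraries that share their scaling totals, and they carry no test. All members together took 1.32% to 1.65% of the reads in libraries of the Smad2 line, 1.56% to 2.19% in MyS3KO and 2.03% to 2.45% in Smad3fl. In the heatmap of all members by library, the Smad3fl columns are red in most enzyme rows, while Hk2 and Vhl turn redder and Ndrg1 bluer with TGF-β1 in each genotype. Not all enzymes are high there: by mean FPKM, Hk3, Aldoc, Pfkm and Ldhb were lowest in a Smad3fl group.

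**Figure D1:**
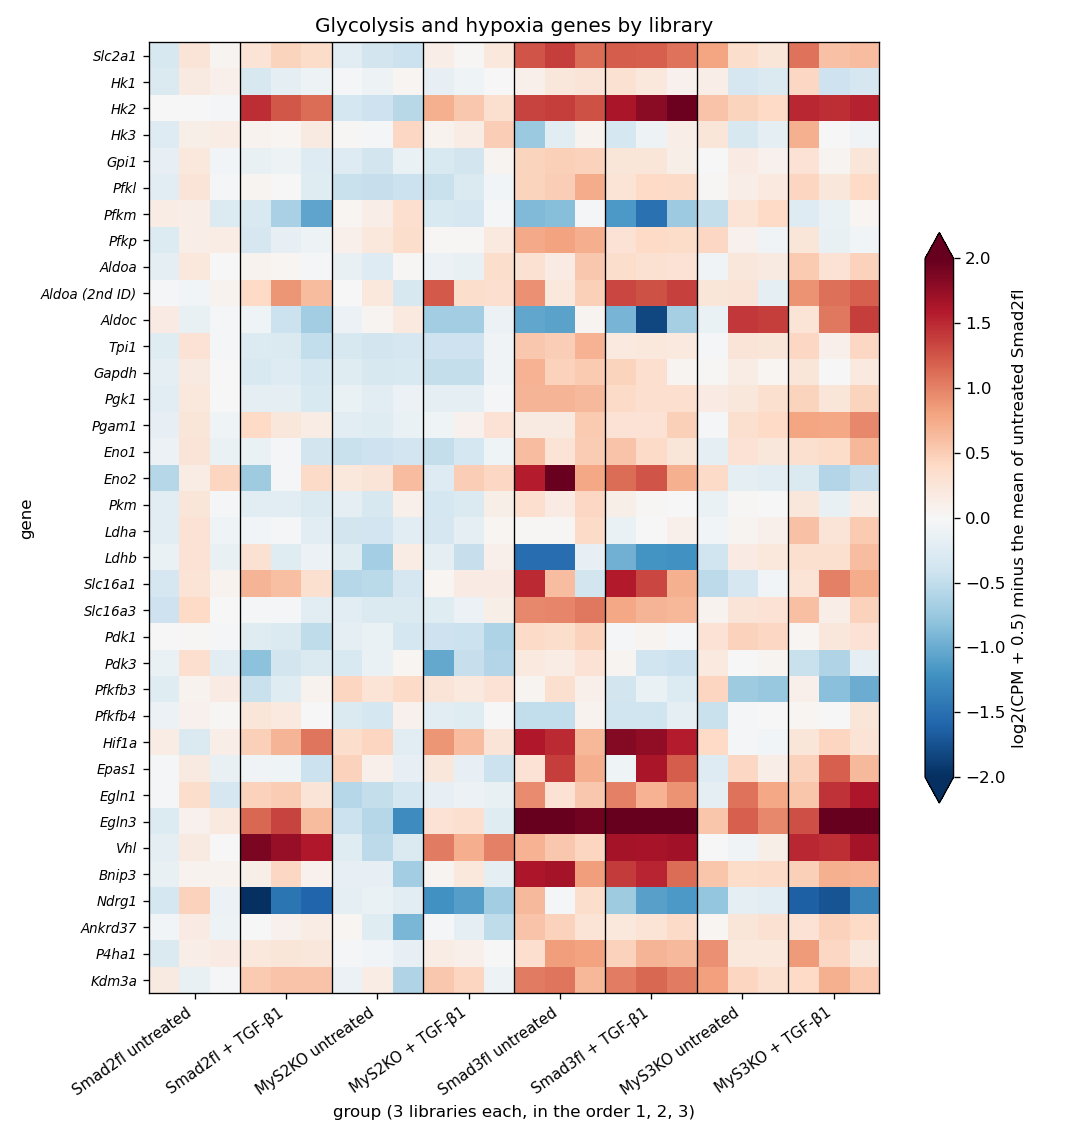
Each cell is the log2(CPM + 0.5) of a gene (rows) in a library (columns, 3 per group) minus the mean of the 3 untreated Smad2fl libraries, with colours capped at 2 log2 units either way. Hk2 and Vhl are redder and Ndrg1 bluer in the treated libraries of each genotype, and Smad3fl libraries are red in most enzyme rows.

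The first question of the design is what TGF-β1 did in each genotype. In the glycolysis and hypoxia genes few calls were shared by all genotypes. Hk2, the inducible hexokinase that starts glycolysis, and Vhl rose in all 4 genotypes, and Ndrg1 fell in all 4. Egln3 rose in Smad2fl and MyS3KO, and Pdk1 fell in Smad2fl and Smad3fl. Of the enzymes downstream of hexokinase the test called Pgam1 in MyS3KO. It also called the second Aldoa identifier there, a row of few reads that may have passed the filter only through treated libraries. In Smad2fl 6 of 36 rows were called, 4 higher and 2 lower. Of all 14261 genes tested, 11.1% were called in this comparison, 7.37% higher and 3.74% lower. In the libraries labelled MyS2KO 3 rows were called, 2 higher and 1 lower, against 3.41% of all genes (2.9% higher, 0.505% lower). Smad3fl had 2 higher and 2 lower, against 12% of all genes (6.38% and 5.64%), and MyS3KO had 6 higher and 1 lower, against 10% (6.54% and 3.47%). The 6 higher rows of MyS3KO, and its share given next, include the second Aldoa identifier, whose call is not taken as support. The members' shares were 16.7% in Smad2fl, 8.33% in MyS2KO, 11.1% in Smad3fl and 19.4% in MyS3KO. That of Smad3fl is near its background in this fit, which does not pair libraries. The 3 treated and 3 untreated libraries did not overlap in 16 rows in Smad2fl, 13 in MyS2KO, 15 in Smad3fl and 15 in MyS3KO, against 33.8%, 18.4%, 28.4% and 24.9% of all genes. In such bulk samples fewer cells of a type and less RNA per cell cannot be told apart.

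The numbers of the libraries were taken to pair treated with untreated samples in MyS2KO and Smad3fl. There the deviations of same-numbered libraries from their group means all correlated at over 0.1. In MyS2KO a pair of different numbers reached 0.197, above the lowest same-numbered value of 0.154, so the pairing is less sure there. Counts with the number as a block stand beside these results: 6 rows in MyS2KO and 12 in Smad3fl. The shares of all genes above are those of the fit without the block. Shares with the block are not given here, so these 2 counts are not set against a background. Those of the other genotypes are given at the end. The rows that the block added in Smad2fl and MyS3KO are not named, so statements on the paired fit cover MyS2KO and Smad3fl only. Where no fit is named, calls are those without the block. The paired fit in Smad3fl added Pfkm, Pfkp, Tpi1, Pgk1, Pdk3 and Pfkfb3 as lower and Slc16a1 and Hif1a as higher, and in MyS2KO it added Slc2a1, Egln3 and Kdm3a as higher. Without the pair of Smad3fl libraries numbered 3, 2 rows were called in Smad3fl, Vhl and Ndrg1. Without the pair of MyS3KO libraries numbered 1, 4 rows were called in MyS3KO, Hk2, Egln3, Vhl and Ndrg1. Leaving out single libraries, the count in Smad2fl was 3 without untreated library 2, untreated library 3 or treated library 2, and that in MyS3KO was 3 without untreated library 1 or treated library 3 and 4 without untreated library 3 or treated library 2. With only the 2 groups compared in the fit, 2 rows were called in Smad3fl and 4 in MyS3KO. With library totals in place of TMM the calls were 4 higher and 1 lower in Smad2fl, 3 and 0 in MyS2KO, and 2 and 1 in Smad3fl.

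Hk2 (ENSMUSG00000000628, chr6:82725025-82774454, minus strand) was at 180.2, 181 and 178 CPM in untreated and 500.0, 426 and 392 CPM in treated Smad2fl (log2 change 1.29 ± 0.12, adjusted p = 8.88e-08). In MyS2KO it was at 141, 135 and 123 CPM untreated and 294, 262 and 224 CPM treated (log2 change 0.97 ± 0.12, adjusted p = 1.33e-05). In both genotypes of the Smad2 line every treated library lay above every untreated one, by more than the spread between libraries. In Smad3fl the untreated libraries already held 462, 471 and 436 CPM, about the level of treated Smad2fl, and the treated ones 556, 629 and 701 CPM (log2 change 0.46 ± 0.12, adjusted p = 0.0115). In MyS3KO Hk2 was at 268, 245 and 236 CPM untreated and 510.5, 500.0 and 521 CPM treated (log2 change 1.03 ± 0.12, adjusted p = 2.17e-06). The groups of the Smad3 line did not overlap either, but the call in Smad3fl was lost without the libraries numbered 3 (0.33, adjusted p = 0.196) and when only its own 2 groups entered the fit (adjusted p = 0.0810).

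Hk2 was not the main hexokinase by FPKM. Hk3, the hexokinase of myeloid cells, made up more of the 3 hexokinases than Hk1 and Hk2 together in every library, from 50.5% to 80.7%. With the listed gene lengths its share was 66.1% to 91.4%, and the mean share of Hk2 untreated and treated was 8.21% and 17% for Smad2fl and 5.76% and 10.0% for MyS2KO. For Smad3fl the means were 21.6% and 24.7%, and for MyS3KO 11.7% and 18.4%. As deposited, the share of Hk2 was 11.8, 9.27 and 9.04% in untreated and 23.4, 20.7 and 18% in treated Smad2fl, and 7.98, 7.91 and 5.59% and 15, 13 and 9.4% in MyS2KO. In Smad3fl it was 29.4, 24.1 and 20.0% untreated and 28.3, 28.4 and 28.3% treated, and in MyS3KO 12.4, 15.9 and 14.4% and 16.6, 24.4 and 25.9%. Treated and untreated shares did not overlap in 3 genotypes, while in Smad3fl the untreated shares spanned the treated ones. Neither Hk1, the housekeeping hexokinase, nor Hk3 was called in any of the 4 comparisons, with log2 changes of -0.22 to 0.09 and 0.09 to 0.32.

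**Figure D2:**
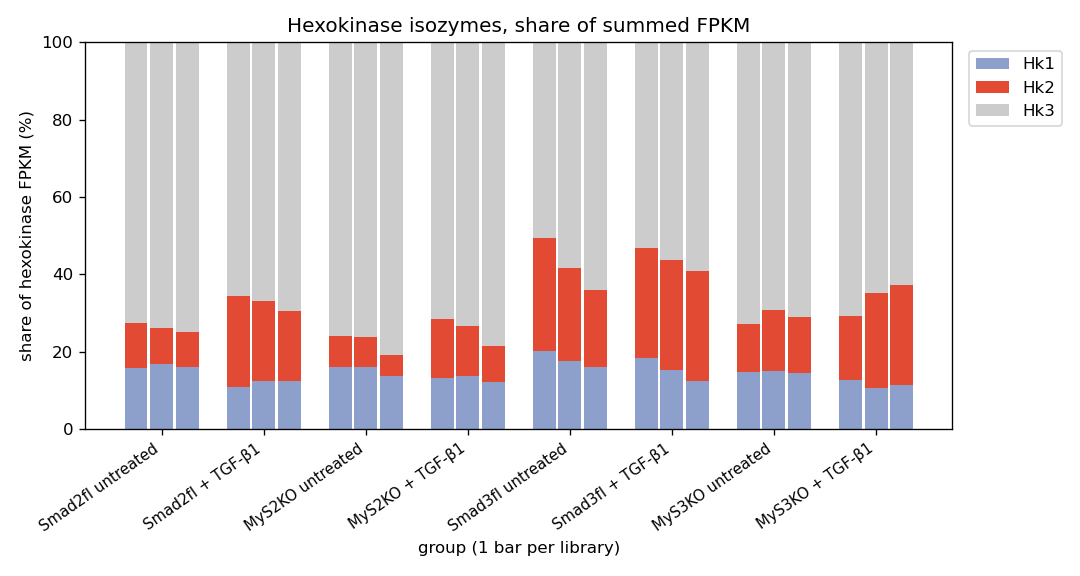
Stacked bars give the share (%) of Hk1, Hk2 and Hk3 in their summed FPKM, with 1 bar per library and 3 bars per group. The red Hk2 segment is larger in treated than in untreated libraries in Smad2fl, MyS2KO and MyS3KO, and in Smad3fl it is at 29.4, 24.1 and 20.0% untreated and 28.3, 28.4 and 28.3% treated.

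Vhl (ENSMUSG00000033933, chr6:113623959-113631633, plus strand) showed the largest called rise in Smad2fl, MyS2KO and Smad3fl, and in MyS3KO the largest beside that of the second Aldoa identifier. It was at 30.4, 40.0 and 35.4 CPM in untreated and 131, 119 and 108 CPM in treated Smad2fl (log2 change 1.76 ± 0.13, adjusted p = 1.44e-09). The libraries labelled MyS2KO held 29.5, 24.3 and 28.6 CPM untreated and 72.7, 58.1 and 71 CPM treated (log2 change 1.29 ± 0.13, adjusted p = 4.16e-07). Again no treated library of the Smad2 line fell within the untreated range of its genotype. Smad3fl held 57.1, 51.3 and 47.3 CPM untreated and 112, 111 and 113 CPM treated (log2 change 1.11 ± 0.13, adjusted p = 1.55e-06). MyS3KO held 34.8, 33.2 and 37.9 CPM untreated and 100.2, 98 and 113 CPM treated (log2 change 1.55 ± 0.13, adjusted p = 1.23e-08). The treated libraries of Smad2fl, Smad3fl and MyS3KO lay in nearly the same range, and those labelled MyS2KO lay below it. The call for Vhl held in all 4 genotypes under all alternatives tried.

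Of the other oxygen sensors, Egln3 was at 6.25, 8.16 and 8.82 CPM in untreated and 17.6, 20.3 and 12.2 CPM in treated Smad2fl (log2 change 1.11 ± 0.35, adjusted p = 0.0413). In MyS3KO it was at 11.4, 18.2 and 15.4 CPM untreated and 19.4, 35.9 and 46.7 CPM treated (log2 change 1.18 ± 0.34, adjusted p = 0.0280). The groups did not overlap in these 2 genotypes. It was not called in MyS2KO, with 5.58, 5.0 and 2.92 CPM untreated and 9.5, 9.76 and 6.41 CPM treated (log2 change 0.93 ± 0.37, adjusted p = 0.254), where the groups were also apart and the paired fit called it higher. In Smad3fl it stood at 81, 58.5 and 30.7 CPM untreated and 93.4, 65.1 and 45.8 CPM treated (log2 change 0.26 ± 0.33, adjusted p = 0.678), and the 2 ranges overlapped widely. Hif1a, whose protein the VHL ligase marks for degradation, was at 51.9, 37.8 and 51.3 CPM in untreated and 65, 74.8 and 97.8 CPM in treated Smad2fl (log2 change 0.75 ± 0.23, adjusted p = 0.0318), without overlap. Its log2 changes of 0.40 in MyS2KO, 0.42 in Smad3fl and 0.20 in MyS3KO were not called, though the paired fit called it higher in Smad3fl. Egln1, the main HIF prolyl hydroxylase, and Kdm3a, a HIF-induced histone demethylase, were not called in any single genotype by the unpaired fit (the paired one called Kdm3a higher in MyS2KO), and their log2 changes ran from 0.26 to 0.64 and from 0.01 to 0.55.

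Ndrg1 (ENSMUSG00000005125, chr15:66929318-66969640, minus strand), a gene that low oxygen induces in many cells, went the other way. It was at 112, 198 and 131 CPM in untreated and 34.6, 51.3 and 47.2 CPM in treated Smad2fl (log2 change -1.73 ± 0.22, adjusted p = 7.55e-06). In MyS2KO it was at 125, 130.2 and 124 CPM untreated and 61.1, 66 and 88.1 CPM treated (log2 change -0.82 ± 0.22, adjusted p = 0.0376). Each treated library lay below all untreated ones of its genotype. Smad3fl held 224, 141 and 183 CPM untreated and 87.1, 67.1 and 63.9 CPM treated (log2 change -1.33 ± 0.22, adjusted p = 0.000176). MyS3KO held 82.9, 127 and 123 CPM untreated and 45.6, 42.8 and 56.5 CPM treated (log2 change -1.20 ± 0.22, adjusted p = 0.000682). The ranges were apart there too. The MyS2KO call is the weakest of the 4 and was lost in 6 of its 12 alternatives. The other HIF targets Bnip3 (a mitophagy receptor), Ankrd37 and P4ha1 (a collagen prolyl hydroxylase) were not called in any genotype, with log2 changes between -0.15 and 0.35.

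**Figure D3:**
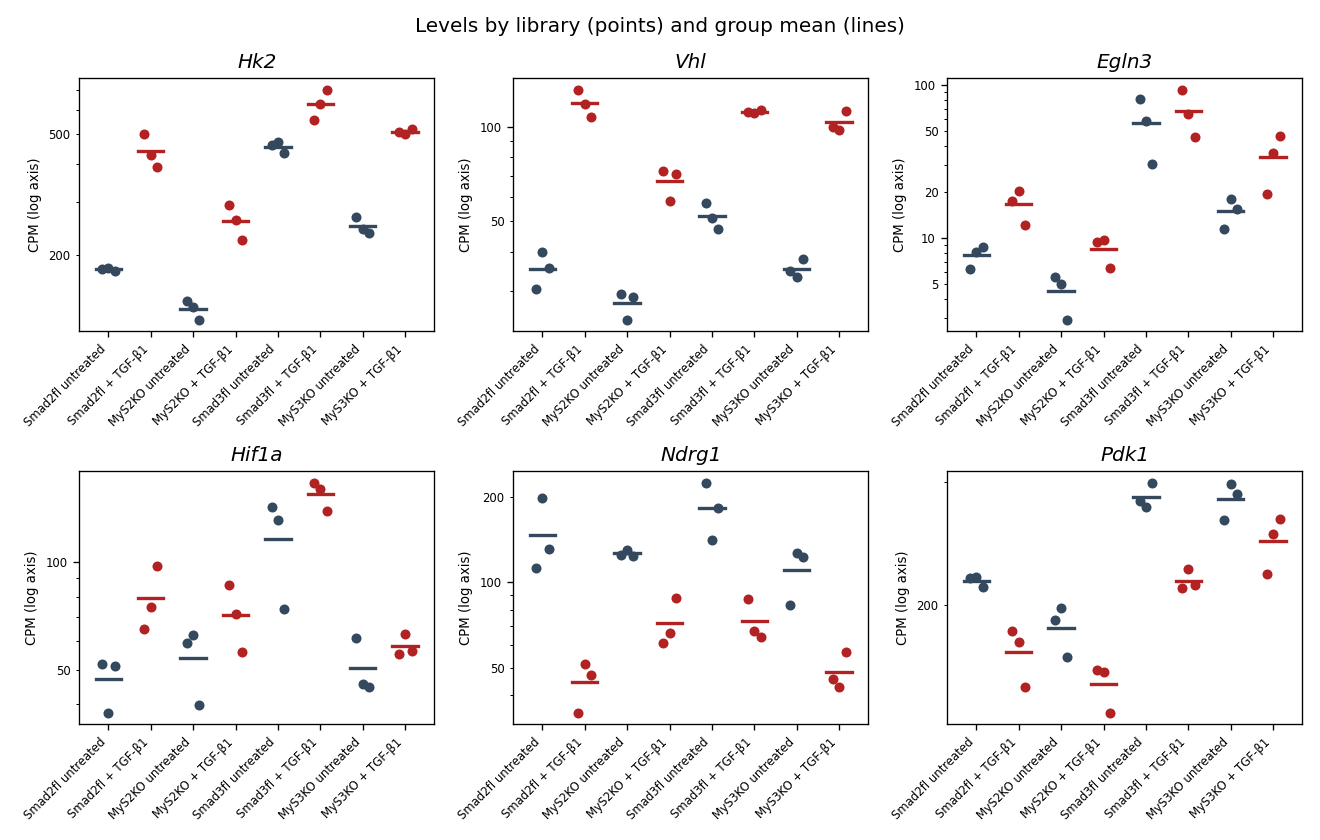
Levels (CPM, log axis) of Hk2, Vhl, Egln3, Hif1a, Ndrg1 and Pdk1 in the 8 groups, with a point for each library, a line for the group mean, dark blue for untreated and red for TGF-β1. Hk2 and Vhl points are higher and Ndrg1 points lower in each treated group, and Egln3 and Hif1a are highest in Smad3fl.

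Pdk1, the kinase that blocks pyruvate dehydrogenase and so keeps pyruvate from the mitochondria, was at 219, 219 and 213 CPM in untreated and 184, 178 and 153 CPM in treated Smad2fl (log2 change -0.34 ± 0.11, adjusted p = 0.0434). In Smad3fl it was at 282, 276 and 299 CPM untreated and 212, 225 and 214 CPM treated (log2 change -0.40 ± 0.11, adjusted p = 0.0156). The treated libraries were lower without overlap in both, and in Smad3fl the call was lost without the libraries numbered 3 (adjusted p = 0.119). In MyS2KO the libraries were at 191, 198 and 169 CPM untreated and 162, 161 and 141 CPM treated (log2 change -0.27 ± 0.11, adjusted p = 0.262), also without overlap but not called, and in MyS3KO at 265, 298 and 288 and 222, 253 and 266 CPM (log2 change -0.20 ± 0.11, adjusted p = 0.297), where they overlapped. Its relative Pdk3 had log2 changes of -0.58 to -0.48 and was not called in any genotype without the block, and the paired fit called it lower in Smad3fl. The bifunctional regulators Pfkfb3 and Pfkfb4 were not called without the block either, and the paired fit called Pfkfb3 lower in Smad3fl.

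The steps from glucose 6-phosphate to lactate (16 rows, Gpi1 to Ldhb) had no call in Smad2fl, MyS2KO or Smad3fl without the block, while the paired fit in Smad3fl called Pfkm, Pfkp, Tpi1 and Pgk1 lower. Their median log2 changes were -0.18 in Smad2fl, 0.05 in MyS2KO, -0.27 in Smad3fl and 0.15 in MyS3KO, and the medians over all tested genes were 0.01, 0.01, -0.03 and 0.00. In MyS3KO, Pgam1 (phosphoglycerate mutase) was at 178, 225 and 239 CPM untreated and 314, 309.9 and 351 CPM treated (log2 change 0.60 ± 0.14, adjusted p = 0.00619), without overlap. A copy of Pgam1 in the genome is near-identical, and its row held 1.53% as many reads. The lactate and pyruvate transporter Slc16a1 (MCT1) was at 1.97, 2.32 and 2.9 CPM untreated and 3.8, 6.65 and 5.41 CPM treated in MyS3KO (log2 change 1.14 ± 0.36, adjusted p = 0.0477), without overlap, while the more abundant lactate exporter Slc16a3 (MCT4) was not called in any genotype. The paired fit also called Slc16a1 higher in Smad3fl. The glucose transporter Slc2a1 (GLUT1) had log2 changes of 0.35, 0.45, -0.09 and 0.30 in Smad2fl, MyS2KO, Smad3fl and MyS3KO, and none was called without the block, while the paired fit called it higher in MyS2KO. The second Aldoa identifier was called higher in MyS3KO (log2 change 2.20 ± 0.66, adjusted p = 0.0342) at no more than 0.937 CPM. It overlaps Fam57b on the opposite strand over 8319 bases, and Fam57b held 63.8% as many reads, so its counts are uncertain. The row held 232 reads over the 24 libraries, and its log2 changes were 1.31 to 2.20. It may have passed the filter on low counts only through treated libraries, so its calls are not taken as support.

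**Figure D4:**
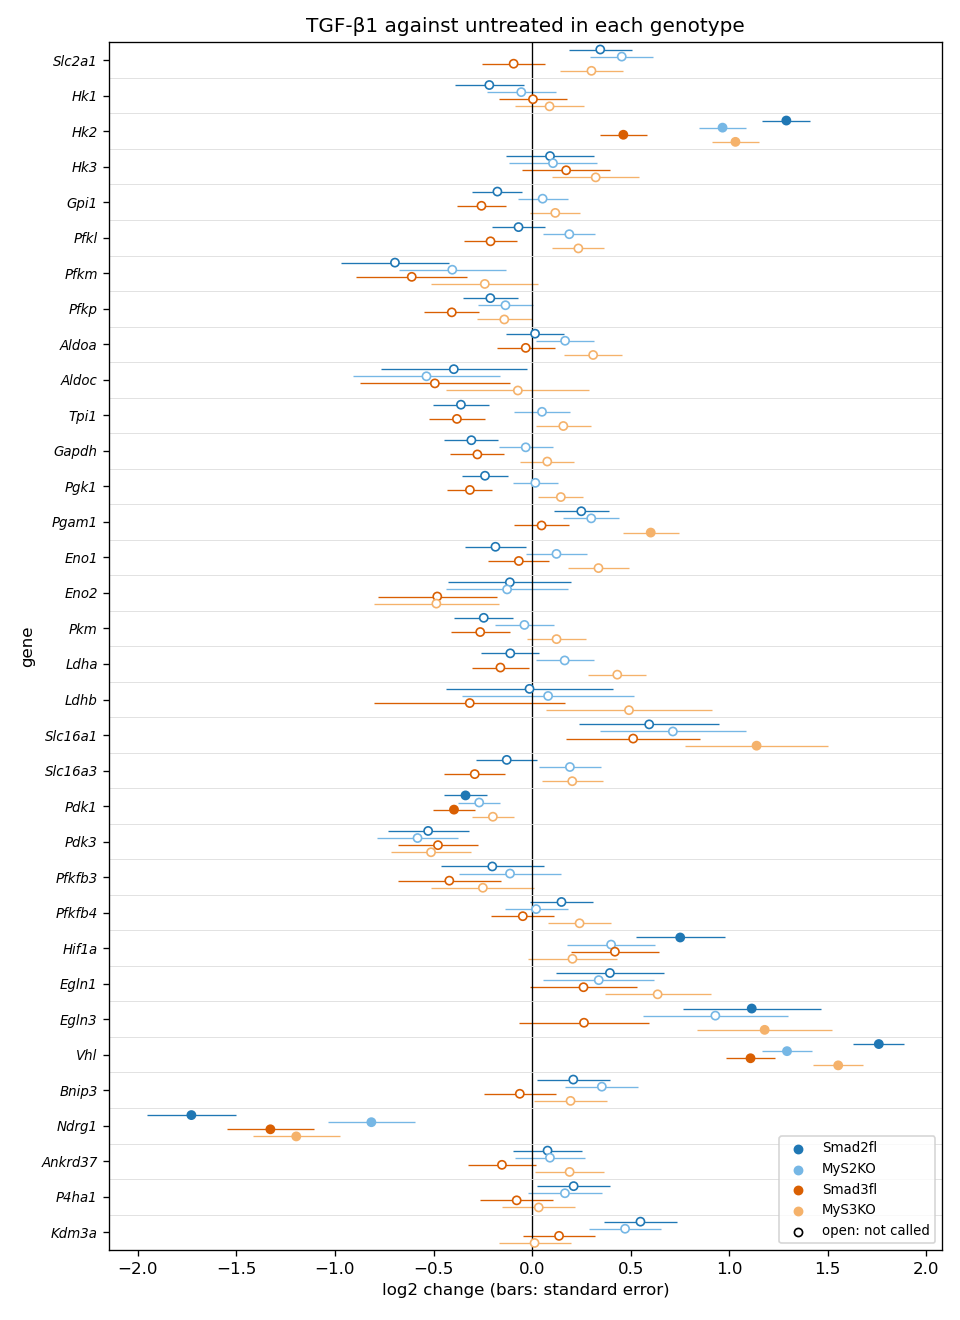
Fitted log2 changes with TGF-β1 (points) and their standard errors (bars) for 34 members in the 4 genotypes, with Epas1 and the second Aldoa identifier left out for their low counts. Filled points passed the test: Hk2 and Vhl lie to the right and Ndrg1 to the left of 0 in all 4 genotypes, and most enzymes have open points near 0.

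Averaged over the 4 genotypes, where 12 treated stand against 12 untreated libraries, 15 of 36 rows were called, 10 higher and 5 lower. Of all genes, 30.1% were called in this average, 16.2% higher and 13.9% lower. Beside Vhl (log2 change 1.43 ± 0.06, adjusted p = 4.21e-14) and Hk2 (log2 change 0.94 ± 0.06, adjusted p = 2.54e-11), the rows called higher were Egln3 (0.87), Slc16a1 (0.74), Hif1a (0.44), Egln1 (0.41), Pgam1 (0.30), Kdm3a (0.29), Slc2a1 (0.25) and, on few reads with the same limit of the filter, the second Aldoa identifier (1.87). Beside Ndrg1 (log2 change -1.27 ± 0.11, adjusted p = 4.46e-09), the rows called lower were Pdk3 (-0.52), Pfkm, the muscle-type phosphofructokinase (-0.49), Pdk1 (-0.30) and Pfkp, the platelet type (-0.22). Pfkl, the liver type and the most abundant of the 3 in every library by FPKM and with listed lengths, was not called (log2 change 0.04 ± 0.07, adjusted p = 0.731). Without strand, reads of Pfkm and of the overlapping antisense gene Senp1, and of Pfkp and Pitrm1, cannot be told apart where they overlap. Senp1 overlaps Pfkm over 1156 bases and held more reads than Pfkm, and Pitrm1 overlaps Pfkp over 748 bases and held 19.4% as many reads as Pfkp. Egln1 and Kdm3a lost this call without the Smad3fl libraries numbered 3.

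The next question is what differs between knockout and floxed cells. In the Smad2 line few members did: untreated libraries labelled MyS2KO and Smad2fl had 0 called rows by the edgeR quasi-likelihood test, 9 at an unadjusted p under 0.05 and 2 by the DESeq2 Wald test, and with TGF-β1 Hk2 and Vhl were lower in MyS2KO. Over all genes, 0.0701% were called untreated (0.0351% higher and 0.0351% lower) and 0.421% with TGF-β1 (0.189% higher and 0.231% lower). Hk2 was at 294, 262 and 224 CPM in treated MyS2KO against 500.0, 426 and 392 CPM in treated Smad2fl (log2 difference -0.76 ± 0.12, adjusted p = 0.00963). Vhl was at 72.7, 58.1 and 71 CPM against 131, 119 and 108 CPM (log2 difference -0.83 ± 0.13, adjusted p = 0.00859). The treated groups did not overlap for either gene. Both calls were lost when Smad2fl treated library 1, MyS2KO treated library 2 or MyS2KO treated library 3 was left out, each of which gave 0 called rows. Untreated, the same genes differed by -0.43 and -0.36 on the log2 scale (adjusted p = 0.218 and 0.368). Libraries did not overlap in 11 rows untreated and 12 with TGF-β1, against 15.2% and 19.4% of all genes, and the members' median differences were -0.21 and -0.11 against 0.01 and 0.01 over all genes.

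In the Smad3 line the difference was broad. Untreated MyS3KO held less RNA than untreated Smad3fl for glucose and lactate transporters, Hk2, much of the glycolytic path, Hif1a, Egln3, Vhl, Bnip3 and Ndrg1, and more of the low-abundance isozymes Aldoc and Ldhb. Of 36 rows, 16 were called lower and 2 higher. Of all 14261 genes tested, 17.7% were called in this comparison, 8.37% higher and 9.38% lower. This count depends on the spread that all 8 groups share: when only the 2 groups compared entered the fit, 2 rows were called, Hk2 and Egln3, both lower. Without the Smad3fl libraries numbered 3 it was 16 rows, 15 of them among the 18, and without the MyS3KO libraries numbered 1 it was 17, with 13 among the 18. The libraries of the 2 groups did not overlap in 16 rows, against 25.7% of all genes, and the members' median difference was -0.40 against -0.03.

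Among the transporters, Slc2a1 was at 644, 699 and 584 CPM in Smad3fl and 462, 342 and 316 CPM in MyS3KO (-0.78 ± 0.16, adjusted p = 0.00183). Slc16a3 was at 541, 547 and 575 CPM in Smad3fl and 293, 332 and 338 CPM in MyS3KO (-0.79 ± 0.16, adjusted p = 0.00145). Slc16a1 was at 9.5, 4.91 and 2.25 CPM in Smad3fl and 1.97, 2.32 and 2.9 CPM in MyS3KO (-1.21 ± 0.36, adjusted p = 0.0227). All 3 MyS3KO libraries lay below all Smad3fl libraries for Slc2a1 and Slc16a3, while for Slc16a1 the Smad3fl library numbered 3 lay among the MyS3KO values. Hk2 was at 462, 471 and 436 CPM in Smad3fl and 268, 245 and 236 CPM in MyS3KO (-0.87 ± 0.12, adjusted p = 6.45e-05), without overlap. The next enzyme, Gpi1, was at 1063, 1085 and 1073 CPM in Smad3fl and 779.9, 877 and 830.0 CPM in MyS3KO (-0.37 ± 0.13, adjusted p = 0.0439). Pfkl was at 395, 405 and 481 CPM in Smad3fl and 294, 318 and 331 CPM in MyS3KO (-0.44 ± 0.13, adjusted p = 0.0235). None of these 3 enzymes overlapped between the groups. Pfkp was at 383, 394 and 374 CPM in Smad3fl and 303, 240.1 and 217 CPM in MyS3KO (-0.60 ± 0.14, adjusted p = 0.00474), again lower in each knockout library.

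Lower on the path, Tpi1 was at 1149, 1120.2 and 1287 CPM in Smad3fl and 777, 945 and 933 CPM in MyS3KO (-0.42 ± 0.14, adjusted p = 0.0405). Gapdh was at 3589.9, 3065 and 3178 CPM in Smad3fl and 2262, 2465 and 2282 CPM in MyS3KO (-0.49 ± 0.14, adjusted p = 0.0166). Pgk1 was at 1943, 1934 and 1891 CPM in Smad3fl and 1363, 1415 and 1506 CPM in MyS3KO (-0.43 ± 0.11, adjusted p = 0.0123). The groups did not overlap for these 3 enzymes, whose differences were under 0.5 on the log2 scale. Eno2, the neuronal enolase, was at 35.8, 47.9 and 20.5 CPM in Smad3fl and 15.6, 10.3 and 10.1 CPM in MyS3KO (-1.54 ± 0.31, adjusted p = 0.00176), a larger difference on a gene of low abundance. The groups did not overlap, with the Smad3fl library numbered 3 nearest to the knockout values. Aldoc, at 9.3, 9.1 and 20.4 CPM in Smad3fl and 18, 53.4 and 52 CPM in MyS3KO (1.67 ± 0.38, adjusted p = 0.00388), was called higher, but the MyS3KO library numbered 1 and the Smad3fl library numbered 3 overlapped. Ldhb, the heart-type lactate dehydrogenase subunit and a gene of few reads, was at 0.359, 0.360 and 1.69 CPM in Smad3fl and 1.37, 2.27 and 2.34 CPM in MyS3KO (1.33 ± 0.45, adjusted p = 0.0443), likewise higher with overlap. Its near-identical copy held 25.8% as many reads as Ldhb, so its counts are uncertain. Ldha and Pkm, enzymes of the last steps to lactate, had differences of -0.13 and -0.34 and were not called.

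Among the HIF genes, Hif1a was at 143, 131 and 73.7 CPM in Smad3fl and 61.4, 45.6 and 44.7 CPM in MyS3KO (-1.20 ± 0.23, adjusted p = 0.00102). Egln3 was at 81, 58.5 and 30.7 CPM in Smad3fl and 11.4, 18.2 and 15.4 CPM in MyS3KO (-1.92 ± 0.35, adjusted p = 0.000671). Vhl was at 57.1, 51.3 and 47.3 CPM in Smad3fl and 34.8, 33.2 and 37.9 CPM in MyS3KO (-0.56 ± 0.13, adjusted p = 0.00410). The knockout libraries were below all floxed ones in each case, and for Hif1a and Egln3 the floxed library numbered 3 was the lowest of its group. Bnip3 was at 307, 316 and 178 CPM in Smad3fl and 147, 129 and 129 CPM in MyS3KO (-0.99 ± 0.19, adjusted p = 0.000998), also without overlap and with the lowest floxed value in number 3. Ndrg1 was at 224, 141 and 183 CPM in Smad3fl and 82.9, 127 and 123 CPM in MyS3KO (-0.72 ± 0.22, adjusted p = 0.0250), again without overlap. Egln1, P4ha1, Ankrd37 and Kdm3a were not called, with differences of 0.04, -0.19, -0.25 and -0.40. Pfkfb3, which makes the strongest activator of phosphofructokinase, was at 592, 708 and 608 CPM in Smad3fl and 763, 346 and 336 CPM in MyS3KO, where library 1 stood apart from numbers 2 and 3. It was not called (-0.40 ± 0.26, adjusted p = 0.309), and without the libraries numbered 1 it was called lower (-0.88, adjusted p = 0.000328).

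With TGF-β1, Hif1a, Egln3, Bnip3 and Ndrg1 were again lower in MyS3KO than in Smad3fl, some enzymes of the lower path and minor isozymes were higher, and no transporter or hexokinase was called. Of 36 rows, 6 were called lower (Eno2, Hif1a, Egln3, Bnip3, Ndrg1 and Kdm3a) and 5 higher (Pfkm, Aldoc, Pgam1, Ldha and Ldhb). Of all 14261 genes tested, 28.2% were called in this comparison, 15% higher and 13.2% lower. The members' share is near this background, so the count by itself does not set them apart from other genes. Scaled by library totals, 11 were lower and 5 higher. The count fell to 7 without Smad3fl treated library 1, to 5 without Smad3fl treated library 2 and to 7 without MyS3KO treated library 3. With the Smad3fl pair numbered 3 left out, 12 rows were called (6 higher, 6 lower), 10 of them among the 11, and with the MyS3KO pair numbered 1 left out, 12 (5 higher, 7 lower), 7 of them among the 11. Libraries did not overlap in 16 rows, against 46.4% of all genes, which is again near the background. The median difference was -0.10 against 0.01.

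Hif1a was at 167, 160.3 and 139 CPM in Smad3fl and 55.4, 62.8 and 56.5 CPM in MyS3KO (-1.41 ± 0.23, adjusted p = 0.000227). Egln3 was at 93.4, 65.1 and 45.8 CPM in Smad3fl and 19.4, 35.9 and 46.7 CPM in MyS3KO (-1.0 ± 0.33, adjusted p = 0.0303). Bnip3 was at 263, 288 and 216 CPM in Smad3fl and 139, 163 and 161 CPM in MyS3KO (-0.73 ± 0.19, adjusted p = 0.00685). Hif1a and Bnip3 did not overlap between the groups, and for Egln3 the highest knockout library passed the lowest floxed one by a little. Ndrg1 was at 87.1, 67.1 and 63.9 CPM in Smad3fl and 45.6, 42.8 and 56.5 CPM in MyS3KO (-0.59 ± 0.22, adjusted p = 0.0487). Kdm3a was at 144, 158 and 146 CPM in Smad3fl and 93.1, 117 and 102 CPM in MyS3KO (-0.52 ± 0.18, adjusted p = 0.0376). Eno2 was at 26.1, 28.9 and 19.6 CPM in Smad3fl and 9.56, 7.64 and 8.39 CPM in MyS3KO (-1.55 ± 0.32, adjusted p = 0.00160). These 3 were apart without overlap.

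On the other side, Ldha was at 1260.0, 1382 and 1481 CPM in Smad3fl and 2071, 1641 and 1981 CPM in MyS3KO (0.47 ± 0.15, adjusted p = 0.0225). Pgam1 was at 220.3, 220.4 and 252 CPM in Smad3fl and 314, 309.9 and 351 CPM in MyS3KO (0.50 ± 0.14, adjusted p = 0.0130). Both enzymes of the lower path were higher in every MyS3KO library than in any Smad3fl library. Aldoc was at 10.1, 5.23 and 12.3 CPM in Smad3fl and 23.9, 41.3 and 52.2 CPM in MyS3KO (2.09 ± 0.38, adjusted p = 0.000665). Pfkm was at 3.81, 2.9 and 5.26 CPM in Smad3fl and 7.48, 8.23 and 9.33 CPM in MyS3KO (1.07 ± 0.28, adjusted p = 0.00814). Ldhb was at 0.770, 0.572 and 0.560 CPM in Smad3fl and 2.58, 2.58 and 3.28 CPM in MyS3KO (2.14 ± 0.46, adjusted p = 0.00233). These isozymes of low abundance were higher in MyS3KO without overlap too. Without the MyS3KO libraries numbered 1, Egln3, Ndrg1, Kdm3a and Ldha were no longer called.

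**Figure D5:**
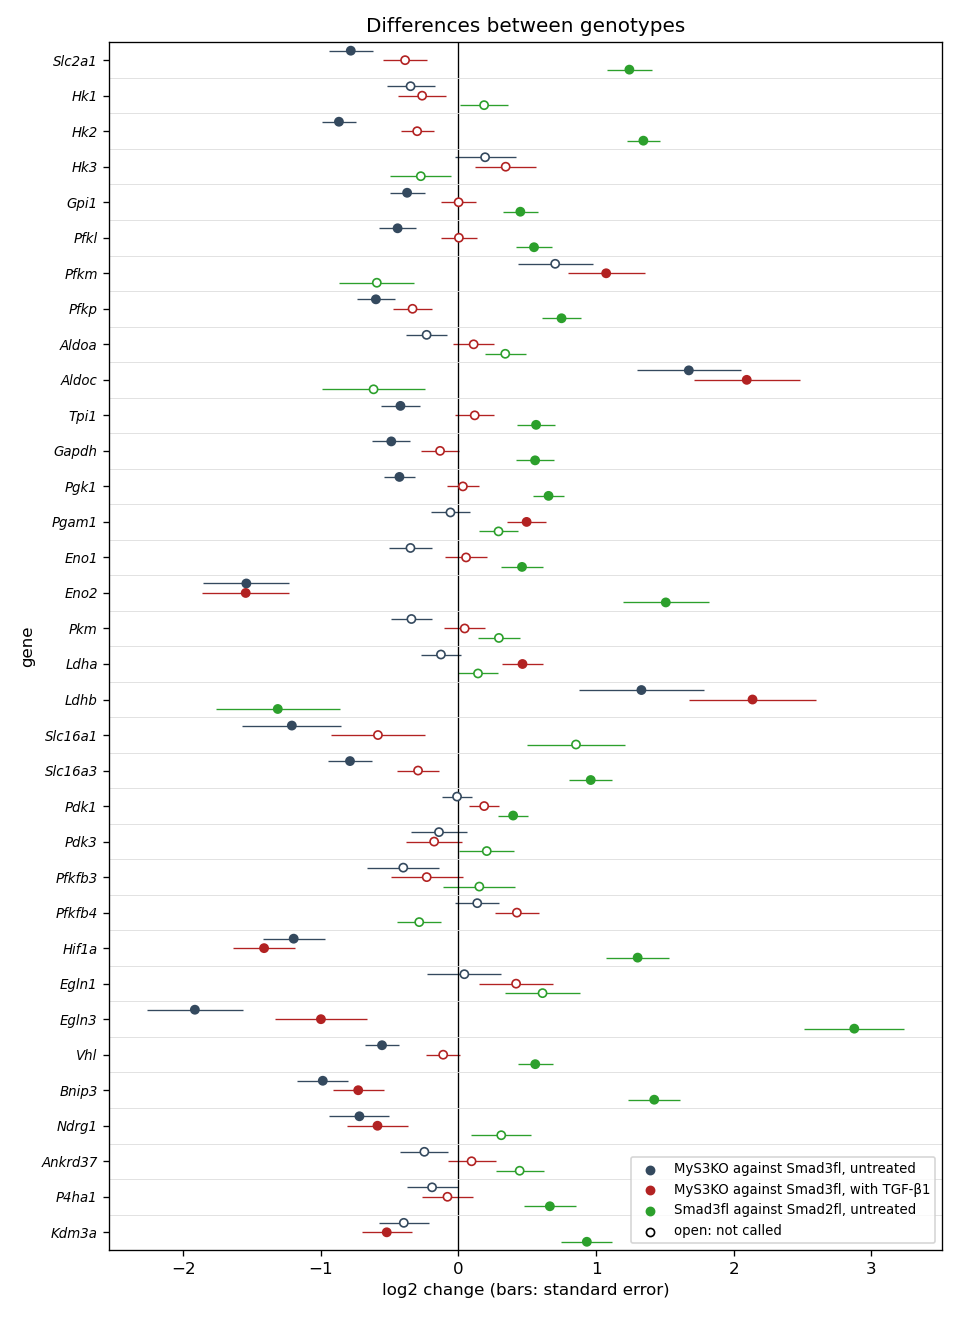
Fitted log2 differences (points) and standard errors (bars) for 34 members, with MyS3KO against Smad3fl untreated in dark blue and with TGF-β1 in red, and Smad3fl against Smad2fl untreated in green, filled where the test passed. The dark blue points lie to the left of 0 for most enzymes, Hif1a and Egln3, the green ones to the right, and Aldoc and Ldhb run the other way, and all 3 comparisons use Smad3fl libraries.

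Whether the response to TGF-β1 differs between knockout and floxed cells was tested directly. No member was called in either line, by the edgeR quasi-likelihood test or the DESeq2 Wald test, while 2 rows in the Smad2 line and 9 in the Smad3 line had an unadjusted p under 0.05. Over all genes the interaction called 0.00701% in the Smad2 line (0% higher and 0.00701% lower) and 0.021% in the Smad3 line (0.021% higher and 0% lower). The lowest adjusted p in the Smad3 line was that of Hk2, whose log2 response was 0.46 in Smad3fl and 1.03 in MyS3KO (difference 0.57 ± 0.17, adjusted p = 0.572). In that line 32 of 36 differences were positive, with a median of 0.38 against 0.07 over all genes, and in the Smad2 line 24 were positive, with a median of 0.09 against 0.01. An effect called in a floxed group and not in its knockout is therefore not shown to differ between them.

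The 2 floxed lines, which carry different floxed genes, were set side by side, and the line cannot be told apart from anything else that was handled by line. The same Smad3fl libraries stand in the comparison with MyS3KO, so an unusual Smad3fl value moves both in opposite directions. Untreated Smad3fl held more RNA than untreated Smad2fl for 18 rows and less for 1, Ldhb. Of all 14261 genes tested, 33.4% were called in this comparison, 17.7% higher and 15.6% lower. The largest called differences were those of Egln3 (2.88 ± 0.36, adjusted p = 6.91e-06), Eno2 (1.51 ± 0.31, adjusted p = 0.00107), Bnip3 (1.42 ± 0.19, adjusted p = 1.17e-05), Hk2 (1.34 ± 0.12, adjusted p = 8.3e-08) and, in the other direction, Ldhb (-1.31 ± 0.45, adjusted p = 0.0291). Egln3, for example, was at 6.25, 8.16 and 8.82 CPM in Smad2fl and 81, 58.5 and 30.7 CPM in Smad3fl, and the lowest Smad3fl library was number 3. Bnip3 was at 89.8, 104 and 104 CPM in Smad2fl and 307, 316 and 178 CPM in Smad3fl. Neither gene overlapped between the lines. Eno2 was at 7.72, 13.1 and 15.9 CPM in Smad2fl and 35.8, 47.9 and 20.5 CPM in Smad3fl. Ldhb was at 1.75, 2.49 and 1.71 CPM in Smad2fl and 0.359, 0.360 and 1.69 CPM in Smad3fl. For both the Smad3fl library numbered 3 was the one nearest to Smad2fl. With TGF-β1, 18 rows were higher and 2 lower, against 25.3% of all genes (12% and 13.3%). Epas1 is among the former, a gene that passed the filter on low counts only through the Smad3 line. With only the 2 groups compared in the fit the untreated count was 11. Without Smad3fl treated library 1 the count with TGF-β1 was 13, and without library 2 it was 12. With the Smad3fl pair numbered 3 left out, 22 rows were called untreated (18 higher, 4 lower) and 20 with TGF-β1 (17 higher, 3 lower), with 18 and 18 among those above. Libraries did not overlap in 22 rows untreated and 27 with TGF-β1, against 38.4% and 50.9% of all genes, and the members' medians were 0.55 and 0.44 against 0.07 and 0.01.

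The response to TGF-β1 itself was not shown to differ between the floxed lines: no member was called for that difference by the edgeR quasi-likelihood test, 2 had an unadjusted p under 0.05 and 1 was called by the DESeq2 Wald test, and 0% of all genes were called (0% higher and 0% lower). Hk2 had the lowest adjusted p (difference -0.83 ± 0.17, adjusted p = 0.204). Other measures also differed between Smad3fl and Smad2fl, and not all of them were shared by MyS3KO, the other genotype of the Smad3 line. Transcripts of ribosomal proteins took 0.836% to 1.37% of reads in Smad3fl and 1.46% to 2.19% in the other libraries. Those of MyS3KO, at 1.46% to 2.04%, were among the latter. Granulocyte markers (8 genes) summed to 0.954 to 2.19 CPM in untreated Smad2fl and 2.35 to 14.8 CPM in untreated Smad3fl, with 2 of 5 tested called higher and Ly6g at no more than 0.239 CPM. Mast cell and basophil markers (8 genes) summed to 23.9 to 38.2 and 7.98 to 24.5 CPM, nearly all of it Hdc, with Mcpt8, Fcer1a and Tpsb2 at 0. Erythroid and megakaryocyte markers (8 genes) summed to 211 to 269.8 and 90.5 to 174 CPM, nearly all of it Pf4. Dendritic cell markers (8 genes) summed to 18.7 to 22.3 and 32.6 to 40.6 CPM, mostly Xcr1, with Cd209a at 0, and macrophage markers to 17058 to 21042 and 14890.3 to 23045 CPM, with 4 of 10 called lower. The lymphocyte gene Cd3e was at 0. Their part in the differences between the lines was not tested. Between untreated MyS3KO and Smad3fl none of the tested granulocyte, mast cell, dendritic, erythroid or lymphocyte markers was called, and macrophage markers, at 17816 to 18757 CPM in MyS3KO, had 2 higher and 1 lower. Of 5 osteoclast markers tested 1 was higher and 1 lower, and the list summed to 78 to 95.3 CPM in MyS3KO and 94.1 to 159.7 CPM in Smad3fl. With TGF-β1 the 1 mast cell marker tested was called higher in MyS3KO (10.9 to 35.1 CPM summed, 4.49 to 8.9 in Smad3fl), as was 1 of 3 erythroid and megakaryocyte markers (146 to 175 and 70.0 to 149.9 CPM). There 1 of 2 lymphocyte markers was lower (8.34 to 10.1 and 6.57 to 13.7 CPM), 2 of 10 macrophage markers were higher (16275 to 20832 and 13619 to 16147 CPM), and 2 osteoclast markers were higher and 1 lower (101 to 111 and 91.8 to 138 CPM). Their part in the differences between MyS3KO and Smad3fl was not tested.

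Genes next to these on the pathway place the members. Their lists were drawn up with earlier results of these data known, and single genes are named for their TGF-β1 calls in at least 3 genotypes. Of 43 other hypoxia response genes tested, TGF-β1 gave 6 higher and 1 lower in Smad2fl, 5 higher and 0 lower in MyS2KO, 7 higher and 4 lower in Smad3fl and 6 higher and 1 lower in MyS3KO. The list also holds Pfkfb3, which is a member here. Among those called higher in all 4 genotypes were Cxcr4 (a chemokine receptor), Bhlhe40 and Mxi1 (transcriptional repressors). In Smad2fl their log2 changes were 3.10 ± 0.18, adjusted p = 3.39e-11 for Cxcr4, 3.17 ± 0.25, adjusted p = 5.1e-09 for Bhlhe40 and 1.85 ± 0.27, adjusted p = 3.87e-05 for Mxi1. In the Smad3 line the same list had 3 higher and 18 lower in untreated MyS3KO against Smad3fl and 4 higher and 13 lower with TGF-β1, and 26 higher and 5 lower in untreated Smad3fl against Smad2fl. Its median differences there were -0.54, -0.32 and 0.87, against -0.03, 0.01 and 0.07 over all genes.

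Of 15 other HIF subunits and oxygen sensors, TGF-β1 gave no call higher and 3, 1, 4 and 2 lower in Smad2fl, MyS2KO, Smad3fl and MyS3KO. Cited2, which competes with HIF for its coactivator, fell in all 4 genotypes (in Smad2fl -1.46 ± 0.17, adjusted p = 1.19e-06; in MyS2KO -0.98 ± 0.16, adjusted p = 0.000440). Egln2, the third HIF prolyl hydroxylase, fell in 3 genotypes and not by the test in MyS2KO (-0.86 ± 0.16, adjusted p = 0.000652 in Smad2fl, -0.39 ± 0.16, adjusted p = 0.279 in MyS2KO). Of 15 genes of glycogen and hexose phosphate metabolism, the targeting subunits of the phosphatase that activates glycogen synthase, Ppp1r3d and Ppp1r3b, rose in all 4 genotypes, in Smad2fl by 2.93 ± 0.42, adjusted p = 3.25e-05 and 1.75 ± 0.20, adjusted p = 1.23e-06 on the log2 scale. Ppp1r3d stayed a gene of low level, at 0.554 ± 0.444 CPM in untreated and 4.42 ± 0.516 CPM in treated Smad2fl. Single-genotype TGF-β1 calls were few in the 15 other glycolysis genes (at most 1), the 10 other transporters (at most 2), the 10 pentose phosphate genes (at most 1) and the 18 regulators of glycolytic genes (at most 3). None of the 12 genes of pyruvate entry into mitochondria was called in a single genotype, while in untreated Smad3fl against Smad2fl 5 of them were lower and none higher, the reverse of most glycolytic members. As a check of the treatment, all 8 TGF-β1 control genes, Smad7 and Pmepa1 among them, were called higher in each genotype.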

How the data were processed

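The submitters' processing notes name Cufflinks 2.1.1, HTSeq 0.6.1, TopHat2 2.0.9 and the mouse genome builds mm10 and GRCm38.p6; which tool did what, and whether counting used the strand, is not given in the sources used here. The deposited table holds counts per gene and the authors' FPKM in 24 libraries. In the deposited FPKM, 8510 of 8510 genes checked had a constant ratio to counts per total within 0.100%, and in 7628 the length this implies is shorter than the listed gene length; FPKM were used to compare levels between genes and to give ranges over groups, with the listed lengths as an alternative chosen after seeing the data.

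Counts of all 24 libraries were fitted together by group with edgeR 4.0.16 (R 4.3.3; TMM scaling, filterByExpr, quasi-likelihood test, Benjamini-Hochberg adjustment over 14261 genes; median biological coefficient of variation 21.2%). DESeq2 1.42.0, other scalings, no filter, separate fits, the replicate number as a block and libraries left out were alternatives, and the edgeR step was tested on simulated data. Depth of 16868501 to 24918582 counts leaves Epas1, Ldhb, Slc16a1 and the second Aldoa identifier imprecise. With 3 against 3 libraries an exact permutation test cannot go below a two-sided p of 0.1, so none is given.

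Numbers were taken to pair libraries where all 3 correlations of same-numbered deviations were over 0.1: 0.154, 0.223 and 0.405 in MyS2KO and 0.445, 0.345 and 0.334 in Smad3fl. The highest correlation of differently numbered libraries was 0.197 in MyS2KO and -0.0921 in Smad3fl. Members and gene lists were chosen with earlier results of these data known. Members called in at least 2 single-genotype TGF-β1 comparisons or in a knockout comparison, and the 5 largest called differences between floxed lines, are given with the value in every library in those comparisons; further library values, those of Pfkfb3 among them, were added after they were seen. Genes of other lists are named where called in at least 3 genotypes, up to 4 a list; a few that the rule names are not reported here. Near-identical copies were matched with BLAST 2.17.0 (identity of at least 95% over at least 300 bases).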

Additional observations from a re-analysis of the deposited data

How the results depend on the processing

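Of 105 calls of a member in a comparison, 50 held under all alternatives, 55 were lost in at least 1 and 0 changed sign, and 71 of 399 others were called in at least 1. With the replicate number as a block, 12 rows were called for TGF-β1 in Smad2fl, 6 in MyS2KO, 12 in Smad3fl and 13 in MyS3KO, and 1 for the difference in response between floxed lines. The shares of all genes called with the block are not given here, so these counts do not set the members apart from other genes. The block moved no other count by over 1.5 times. Not all same-numbered correlations passed 0.1 in Smad2fl (0.0465, 0.135 and 0.159) and MyS3KO (0.414, 0.0439 and 0.287), so numbers were not taken to pair libraries there. The highest correlation of differently numbered libraries was 0.0384 in Smad2fl, below all same-numbered ones, and 0.285 in MyS3KO. Both MyS3KO libraries numbered 1 were also low in Ifi202b, at 1.25 CPM untreated and 0.490 CPM treated, against 68.8 to 104 CPM in numbers 2 and 3. Number 1 thus stood apart under both treatments in MyS3KO, whose main counts do not use a pairing. Ifi202b does not bear on Smad2fl. A pairing by number remains possible in both genotypes. The DESeq2 Wald test called 7 rows for TGF-β1 in Smad3fl, 2 in untreated MyS2KO against Smad2fl and 1 for the difference between floxed lines. Without the low-count filter 2 were called in Smad3fl with TGF-β1, 1 in untreated and 4 in treated MyS2KO against Smad2fl. With only the groups compared in the fit, TGF-β1 called 2 rows in Smad3fl and 4 in MyS3KO, treated MyS2KO against Smad2fl 4, untreated MyS3KO against Smad3fl 2 and untreated Smad3fl against Smad2fl 11; such a fit has fewer libraries to estimate the spread from. Without both Smad3fl libraries numbered 3, TGF-β1 called 2 rows in Smad3fl, and without both MyS3KO libraries numbered 1, an alternative chosen after seeing the data, 4 in MyS3KO. Leaving out each library in turn, TGF-β1 counts ran from 3 to 5 in Smad2fl, 2 to 3 in MyS2KO, 3 to 5 in Smad3fl and 3 to 8 in MyS3KO, knockout counts from 0 to 0 and 0 to 2 in the Smad2 line and 12 to 16 and 5 to 10 in the Smad3 line (untreated and treated), and counts between floxed lines from 16 to 24 and 12 to 17. Scaling by library totals moved the median log2 difference of all genes from 0.07 to 0.19 in untreated Smad3fl against Smad2fl, from 0.01 to 0.15 with TGF-β1, from 0.01 to -0.10 in treated MyS3KO against Smad3fl and from -0.03 to 0.09 for TGF-β1 in Smad3fl. Where fewer libraries or genes in the fit do not account for a move by construction, the cause was not tested.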

Other observations

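Outside glycolysis and hypoxia, TGF-β1 moved a few genes of the other lists in each genotype. Of 10 heat shock and immediate early genes, 2 higher and 1 lower were called by the edgeR quasi-likelihood test in each of Smad2fl, Smad3fl and MyS3KO, and 1 higher and 1 lower in MyS2KO. Fos, a subunit of the transcription factor AP-1, rose in all 4 genotypes (log2 change 1.86 ± 0.20, adjusted p = 5.84e-07 in Smad2fl), while its partner Jun fell in all 4 (-1.43 ± 0.20, adjusted p = 2.64e-05 in Smad2fl). Hsph1, a heat shock protein, rose in Smad2fl, Smad3fl and MyS3KO (1.11 ± 0.23, adjusted p = 0.00239 in MyS3KO) and was not called in MyS2KO (0.25 ± 0.24, adjusted p = 0.798). Smad3 itself rose in Smad2fl (0.46 ± 0.14, adjusted p = 0.0274), MyS2KO (0.66 ± 0.14, adjusted p = 0.00456) and MyS3KO (0.54 ± 0.13, adjusted p = 0.00932), and had a log2 change of -0.03 in Smad3fl (adjusted p = 0.918). Of the control genes, the receptor gene Tgfbr1 had a log2 change of 2.74 ± 0.29, adjusted p = 5.36e-07 in Smad2fl. None of the 7 stromal cell markers tested was called for TGF-β1 in Smad2fl or between the floxed lines untreated, while all 5 osteoclast markers tested were called between the lines, 3 higher and 2 lower in Smad3fl.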
